A study of Mus musculus with 2 samples.

Results

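The transcripts described here are 10 long noncoding RNAs that are commonly abundant in mammalian cells: Malat1, Neat1, Gas5, Snhg1, Snhg3, Snhg5, Snhg6, Snhg8, Snhg12 and Epb41l4aos. They were chosen by symbol, and 8 of the 10 were found among the 42392 genes of the expression table. Snhg1 and Snhg8 matched no row by symbol and were not analysed here. The RNA came from hair follicle stem cells, long-lived cells of the bulge from which new hair grows, sorted from the skin of female mice as integrin alpha 6 high and CD34 positive cells that lacked SCA1 and the surface markers of other skin cells. The 2 samples of the series, 1 in telogen (rest) and 1 in anagen II-III (early growth), are both titled controls and share the genotype K15-CrePGR; Shh+/- and RU486 treatment for 8 days. K15-CrePGR is a Cre recombinase fused to the progesterone receptor under a keratin 15 promoter, RU486 is the ligand that activates it, and Shh+/- leaves 1 functional copy of Shh, so neither sample is a wild type. The labels give neither the age of the mice nor the number pooled. The values below are those of the anagen library, as the telogen library was not analysed here.

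Long noncoding RNAs are transcripts that are not translated into a functional protein. Neat1 is the scaffold of paraspeckles, nuclear bodies that hold RNA-binding proteins, and Malat1 is retained in nuclear speckles, where splicing factors gather. The other 8 RNAs are host genes: their introns carry small nucleolar RNAs (snoRNAs), which guide the chemical modification of ribosomal and other RNAs. Box C/D snoRNAs guide ribose methylation and box H/ACA snoRNAs guide the conversion of uridine to pseudouridine. After splicing, the exons of such hosts, Gas5 being the best-studied case, are largely degraded by nonsense-mediated decay, a translation-dependent pathway. Several hosts start with a run of pyrimidines, as ribosomal protein mRNAs do, a feature called a terminal oligopyrimidine (TOP) start.

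Some of the annotated starts show this feature, and 6 are printed here because they differ among the hosts and from Malat1. Each line runs from 40 bases before the annotated RefSeq start to 30 bases from it (assembly GRCm38.p6), 5′ to 3′ on the transcribed strand. Capitals mark an unbroken run of at least 5 C or T that begins within 5 bases of the start, and any match to TATAAA or TATATA on either strand. TATATA reads the same on both strands, and the motifs were allowed to overlap. Promoter sequences were found for 5 of the 8 analysed RNAs, with 2 starts for Gas5.
Gas5, downstream start, chr1:161035126-161035195, plus strand: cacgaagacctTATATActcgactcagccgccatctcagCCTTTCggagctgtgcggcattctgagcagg
Gas5, upstream start, chr1:161034561-161034630, plus strand: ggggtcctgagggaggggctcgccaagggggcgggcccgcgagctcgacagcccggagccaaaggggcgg
Snhg12, chr4:132308638-132308707, plus strand: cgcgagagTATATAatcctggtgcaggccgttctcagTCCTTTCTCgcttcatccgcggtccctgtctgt
Snhg5, chr9:88522868-88522937, minus strand: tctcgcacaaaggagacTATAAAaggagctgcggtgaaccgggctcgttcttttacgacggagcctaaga
Snhg3, chr4:132353657-132353726, minus strand: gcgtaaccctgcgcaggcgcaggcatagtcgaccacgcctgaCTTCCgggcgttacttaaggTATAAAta
Malat1, chr19:5802643-5802712, minus strand: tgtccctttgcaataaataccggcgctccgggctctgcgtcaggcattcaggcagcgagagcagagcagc

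Of these 6 starts, 3 held the pyrimidine run and 4 held a TATA match. The downstream start of Gas5 and the start of Snhg12 held both, with the TATA match beginning 29 and 32 bases before the start and pyrimidine runs of 6 and 9 bases. The start of Snhg5 held TATAAA 23 bases upstream and no pyrimidine run of the required position. In Snhg3 the run was 5 bases long, and TATAAA lay 22 bases downstream of the annotated start. The upstream start of Gas5 and the start of Malat1 held neither motif. The promoters of Snhg1 and Snhg8, whose levels were not analysed here, each held both. Among all 32851 promoters in the sequence table, 22.0% held such a run and 4.99% a TATA match in the same window, and among the 11588 promoters of long noncoding RNAs the shares were 22.9% and 4.54%. The run was found in 34.7% of 75 promoters of ribosomal protein genes, which are classical TOP genes. Of 11 promoters of 10 other host RNAs, among them the microRNA host Mir17hg, 2 (18.2%) held the run and 0 held a TATA match. Of 7 promoters of the listed hosts, 5 held the run and 6 a TATA match, which in Snhg3 lay downstream of the start. Most promoters of ribosomal protein genes lacked the run in this scan, so its absence does not show that a TOP start is absent. These matches describe letters in a window and were not tested as sites.

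Gas5 was by far the highest of the 8 RNAs, and the 8 levels covered a 55.4-fold range. All levels are TPM, a share of transcripts that divides by transcript length and can be compared between genes within a library. Gas5 stood at 522 TPM, Neat1 at 155 TPM, Snhg12 at 86.6 TPM and Snhg5 at 61.1 TPM. Malat1 followed at 51.0 TPM, Snhg6 at 31.1 TPM, Epb41l4aos at 21.5 TPM and Snhg3 at 9.43 TPM. Gas5 alone held 55.7% of the summed level of the 8, and Gas5 with Neat1 held 72.2%. The step from Gas5 to Neat1 was 3.37-fold, the widest between neighbours in the order, and the step from Snhg5 to Malat1 was the narrowest at 1.198-fold. With 1 library there is no replicate spread, so no step in this order could be tested, and no value carries an error. TPM keeps no read depth, and the depth is unknown.

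**Figure D1:**
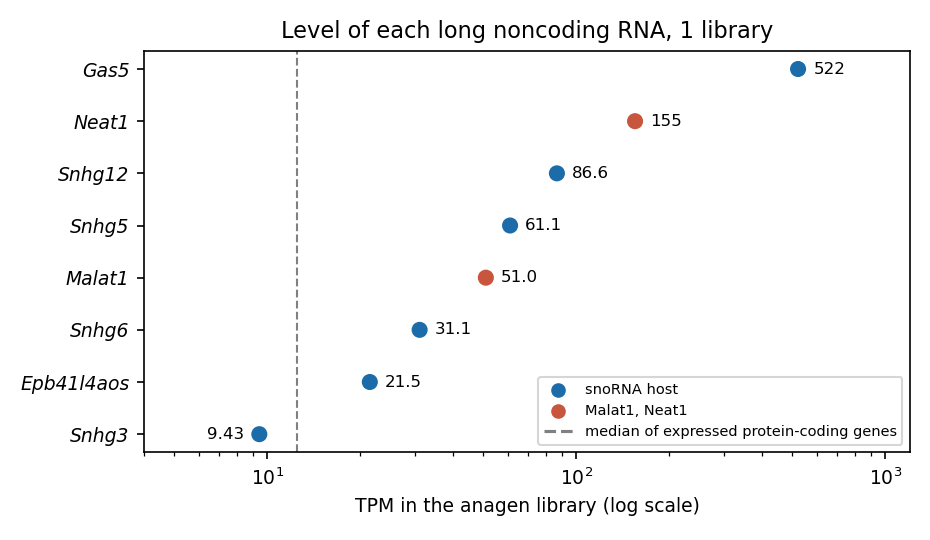
Level of each of the 8 RNAs in the anagen library, in TPM on a log axis, with snoRNA hosts in blue and Malat1 and Neat1 in red; the dashed line is the median of expressed nuclear protein-coding genes, 12.5 TPM. Gas5 at 522 TPM lies far to the right, and Snhg3 at 9.43 TPM is the only point left of the line.

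Of the 8 RNAs, Snhg3 alone lay below the median of expressed protein-coding genes, and it lay above the median of 2.35 TPM over all nuclear protein-coding genes with no filter. Nuclear protein-coding genes at 1 TPM or more, called expressed here, numbered 11692 and had a median of 12.5 TPM. Of the 8 RNAs, 7 lay above that median, as did 1.86% of the 2961 genes typed as long noncoding RNA in RefSeq, 27.9% of all nuclear protein-coding genes and 16.1% of all genes. All 8 reached 1 TPM, against 13.1% of long noncoding RNAs, 55.8% of nuclear protein-coding genes and 34.1% of all genes. At 20 TPM or more stood 7 of the 8, against 1.11% of long noncoding RNAs and 11.6% of all genes. The list is one of RNAs known as abundant, so these counts describe the choice and are not a test. Gas5 was 41.9-fold above the protein-coding median and exceeded 99.0% of expressed protein-coding genes. Neat1 exceeded 96.3% of them, Malat1 86.1%, Epb41l4aos 66.4% and Snhg3 41.3%.

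Together the 8 RNAs held 0.0938% of all TPM and 19.1% of the TPM of RefSeq-typed long noncoding RNAs. Their median was 56.1 TPM, against 2.57 TPM for the 388 long noncoding RNAs at 1 TPM or more. This median depends on what the library's total contains, because TPM is a share. Genes of the mitochondrial genome took 18.8% of all TPM, other IDs with no gene type in RefSeq 8.91%, and nuclear genes of other types 23.9%, mostly pseudogenes at 17.7% and microRNA genes at 5.36%. Rescaled over nuclear protein-coding and long noncoding genes alone, the median of the 8 was 116 TPM. Ratios between the RNAs are untouched by such rescaling.

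**Figure D2:**
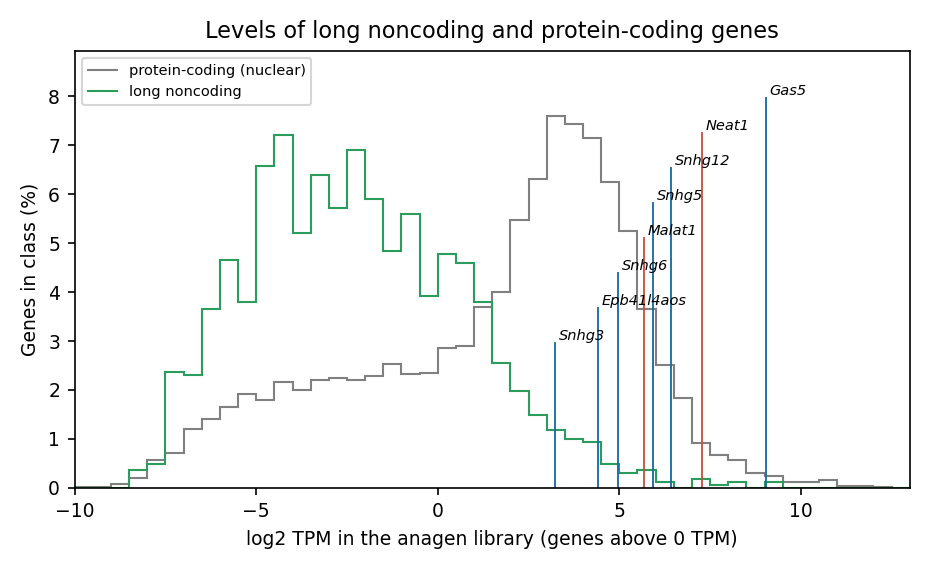
Distribution of log2 TPM for RefSeq-typed long noncoding genes (green) and nuclear protein-coding genes (grey) above 0 TPM, as the percentage of genes of each class per bin of 0.5; vertical lines mark the 8 RNAs, and their heights only separate the labels. The 8 lie in the upper tail of the long noncoding class, from Snhg3 at a log2 TPM of 3.24 to Gas5 at 9.03.

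Among all long noncoding RNAs of the library, the 8 were interleaved with other transcripts and did not form its top. Gas5 ranked 2 of 2961, after Gm15564 at 536 TPM, and Neat1 ranked 6. Snhg12, Snhg5 and Malat1 ranked 9, 11 and 13, Snhg6 ranked 24, Epb41l4aos 31 and Snhg3 68. Between Gas5 and Neat1 stood Rps18-ps4 at 331 TPM, Gm37416 at 314 TPM and 2010010A06Rik at 191 TPM. Another symbol is also in use for the first of these, and reads of near-identical ribosomal protein copies cannot be assigned with certainty. Just below Neat1 came Xist, which coats and silences the inactive X chromosome, at 142 TPM and 2410006H16Rik at 135 TPM. Chaserr, an RNA next to the chromatin remodeller gene Chd2, stood at 73.7 TPM between Snhg12 and Snhg5. The snoRNA host Zfas1 stood at 57.4 TPM, closest to Snhg5 and Malat1, and Hotairm1, a transcript of the HoxA cluster, and 1110038B12Rik at 49.7 and 49.6 TPM were just below Malat1. When features with no RefSeq type were counted as well, Malat1 ranked 119.

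Neat1 and Malat1 are neighbours on chromosome 19, and Neat1 was the higher by 3.04-fold. Malat1 (ENSMUSG00000092341) spans 5795690 to 5802672 and Neat1 (ENSMUSG00000092274) spans 5824708 to 5845480, with 22035 bases between them (GRCm38.p6). RefSeq lists 2 transcripts for Neat1, as is known of this gene: a short form with a poly(A) tail and a long form without one that builds paraspeckles. The value of 155 TPM is for the gene and does not separate them. Malat1 ends in a triple helix in place of a poly(A) tail, after RNase P cuts off the tRNA-like mascRNA. The library was made with an mRNA kit, and how far it captured tail-less RNA was not tested. The flanking protein-coding gene Frmd8 stood at 15.4 TPM, below both RNAs.

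Genes for paraspeckle and speckle proteins were well expressed beside the 2 nuclear RNAs. All 8 listed paraspeckle protein genes lay above the 12.5 TPM median, against 27.9% of all nuclear protein-coding genes, and their median was 131 TPM. Among them, Hnrnpk stood at 402 TPM, Sfpq at 233 TPM and Nono at 161 TPM. Sfpq and Nono encode core proteins that bind Neat1. Dazap1 stood at 99.8 TPM, Hnrnph3 at 34.3 TPM, Pspc1, the paralogue of Nono, at 24.3 TPM and Rbm14 at 18.8 TPM. All 6 speckle genes were above the median too, with a median of 141 TPM. The splicing factor genes Srsf2, Srsf3 and Srsf1 stood at 233, 213 and 156 TPM, and the speckle scaffold genes Srrm2, Son and Srrm1 at 127, 98.2 and 46.4 TPM. Of the listed genes for processing of the Malat1 end, the RNase P subunit genes Rpp30, Pop1 and Rpp25 stood at 12.5, 2.13 and 0.149 TPM, and Elac2, the RNase Z gene, at 12.2 TPM.

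The 6 analysed snoRNA hosts summed to 732 TPM, 3.55-fold the sum of Malat1 and Neat1, with a median of 46.1 TPM. Gas5 made up most of that sum, and the other 5 hosts had a median of 31.1 TPM. Among the hosts of box C/D snoRNAs, Gas5 (growth arrest-specific 5, ENSMUSG00000053332, chromosome 1, 161034601 to 161038539) was 8.55-fold above Snhg5 and 16.8-fold above Snhg6. Snhg5 (ENSMUSG00000097195) lies on chromosome 9 from 88521052 to 88522897, and Snhg6 (ENSMUSG00000098234) on chromosome 1 from 9942025 to 9944118. Among those that carry box H/ACA snoRNAs, Snhg12 (ENSMUSG00000086290, chromosome 4, 132308678 to 132311024), which also holds the box C/D gene Snord99, was 4.03-fold above Epb41l4aos and 9.18-fold above Snhg3. Epb41l4aos (ENSMUSG00000087590) lies on chromosome 18 from 33794892 to 33795989. Snhg3 (ENSMUSG00000085241) lies on chromosome 4 from 132351933 to 132353686, only 40908 bases from Snhg12, so the 2 neighbouring hosts differed widely in level.

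Of 13 other snoRNA host RNAs listed, 9 were found and 5 of these lay above the protein-coding median, against 1.86% of long noncoding RNAs. Their median was 16.5 TPM, and the highest, Zfas1 at 57.4 TPM, lay below Gas5, Snhg12 and Snhg5. Snhg20, Snhg17, Snhg15 and Snhg16 stood at 26.2, 24.7, 19.7 and 16.5 TPM, close to Epb41l4aos and Snhg6. Snhg14, a long imprinted host of many brain snoRNAs, stood at 11.6 TPM and Snhg18 at 9.58 TPM. The lowest were Snhg9 at 2.25 TPM and Snhg11 at 0.195 TPM. Mir17hg, a microRNA host that had been put on the same list, stood at 2.06 TPM and is left out of these counts. Gas5 was 6.03-fold above the next of all 15 snoRNA hosts found, Snhg12.

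The snoRNA genes assigned to the hosts ranged from 0 to somewhat above their host. Values were found for 12 snoRNA genes of the 6 analysed hosts, and 8 of the 12 were above 0, as were 14.5% of the 920 genes typed as snoRNA. In Gas5, Snord47 stood at 26.5 TPM, Snord80 at 16.2 TPM and Snord78 was listed at 0, all far below the host at 522 TPM. In Snhg12, Snora16a stood at 95.9 TPM, near the host's 86.6 TPM, Snora44 at 23.2 TPM and Snora61 at 16.4 TPM, and Snord99 was listed at 0. Snord50b stood at 78.0 TPM against 61.1 TPM for its host Snhg5, and Snord87 at 30.5 TPM against 31.1 TPM for Snhg6. Gm23639, the snoRNA gene within Epb41l4aos, stood at 14.7 TPM, 0.683 of its host's level. Both snoRNAs of Snhg3, Snora73a and Snora73b, were listed at 0. Of the snoRNAs inside the hosts that were not analysed, Snora24 of Snhg8 stood at 93.2 TPM and Snord22 of Snhg1 at 44.3 TPM.

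**Figure D3:**
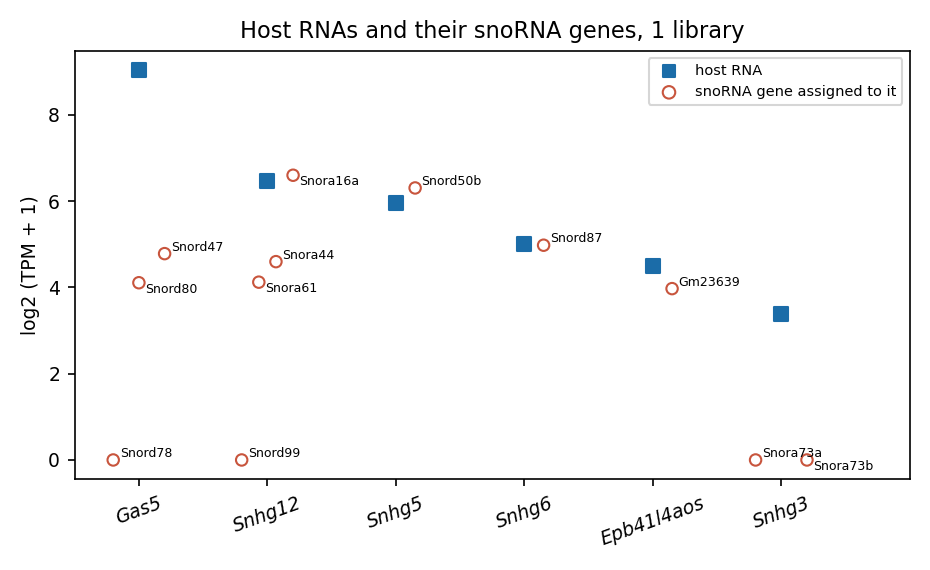
Level of each analysed host RNA (blue squares) and of the snoRNA genes assigned to it (open red circles) in the anagen library, as log2 (TPM + 1). The circles of Gas5 lie far below its square, those of Snhg6 and Epb41l4aos lie near it, and 4 circles lie at 0.

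These snoRNA values do not measure mature snoRNA. An mRNA kit selects against short RNAs without a poly(A) tail, fragments of unspliced host RNA can cover the same bases, and a few reads on a feature of about 100 bases give a large TPM. The file gives no read counts, so the number of reads per snoRNA is unknown. In the spans of the 10 listed RNAs, 17 small RNA genes, among them 7 of Gas5 and the mascRNA of Malat1, matched no value by name. Snord78, Snord80 and Snord50b were assigned to their hosts by name and not by position. Whether they are the same genes as some of the 17 was not checked.

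The genes for proteins that bind the snoRNAs were all expressed. The box C/D proteins, which package snoRNAs such as those of Gas5, were even: Nop58 at 95.6 TPM, Fbl, the methyltransferase fibrillarin, at 89.8 TPM, Nop56 at 84.0 TPM and Snu13 at 59.6 TPM. All 4 lay above the protein-coding median, as did 27.9% of all nuclear protein-coding genes. Of the 5 box H/ACA genes, 4 did: Nhp2 stood at 69.4 TPM, Gar1 at 46.9 TPM, Nop10 at 34.2 TPM and Dkc1, the pseudouridine synthase, at 27.1 TPM. The assembly factor gene Naf1 was lower at 6.35 TPM. Gas5 stood above each of these 9 genes. Snhg12 was close to Nop56 and Fbl, and Snhg3 was between Naf1 and Dkc1.

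Genes of nonsense-mediated decay, the pathway that removes spliced Gas5, had a median of 13.9 TPM, near that of expressed protein-coding genes. All 8 reached 1 TPM, and 5 of the 8 lay above the median of expressed protein-coding genes. By definition, 5846 of the 11692 expressed protein-coding genes lay above it, which is 27.9% of all nuclear protein-coding genes. Smg5 stood at 36.4 TPM, Upf1, the central helicase, at 30.8 TPM and Upf3a at 30.03 TPM. Upf2, Upf3b and Smg6 stood at 13.6, 12.3 and 11.5 TPM, and Smg1, the kinase that phosphorylates UPF1, at 8.24 TPM. RNA levels of these genes do not give the activity of the pathway.

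Protein genes classed as TOP genes had the highest medians of the lists set beside the hosts. This class was assumed and not read from their starts. The scan above found the run in 34.7% of ribosomal protein promoters and in 2 of 6 promoters of the other TOP genes. The 9 translation and related genes had a median of 819 TPM, from Eef1a1 at 3472 TPM, Tpt1 at 3126 TPM and Eef1b2 at 1154 TPM through Rack1 at 1131 TPM and Eef2 at 819 TPM to Eef1g at 413 TPM, Pabpc1 at 300 TPM, Npm1 at 292 TPM and Nap1l1 at 152 TPM. Ribosomal protein genes were taken by name, paralogues included, and had a median of 877 TPM over 83 genes, with Rps27 highest at 3411 TPM. Rpl3l stood at 0.0416 TPM and Rpl10l was listed at 0. Gas5 at 522 TPM lay within the range of these TOP genes, above Eef1g and below Eef2, and the other 5 hosts lay below all 9. Many ribosomal protein genes have processed copies, so their single values are uncertain.

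**Figure D4:**
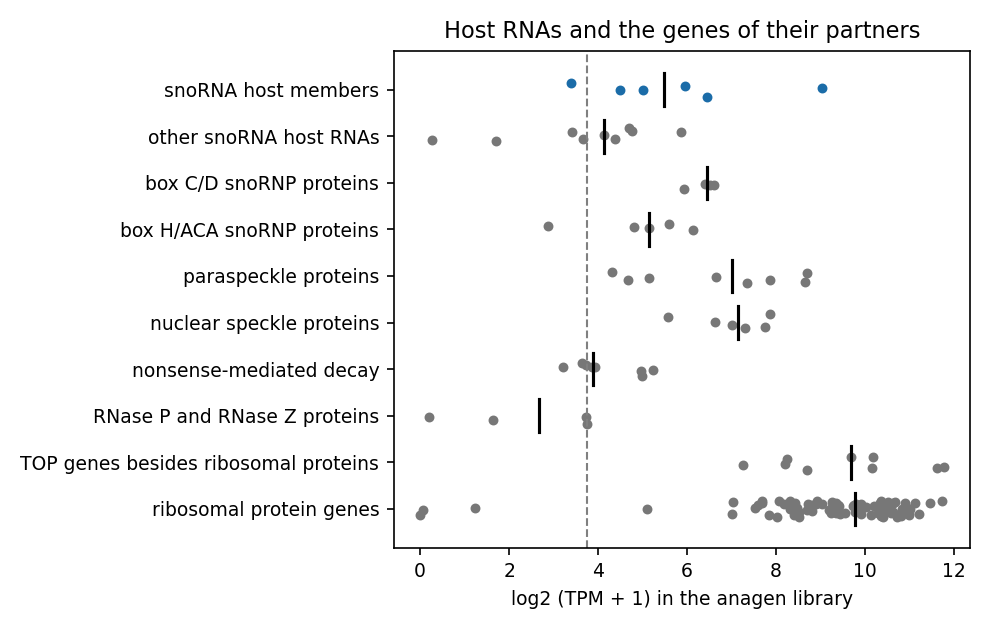
Levels in the anagen library, as log2 (TPM + 1), of the analysed snoRNA hosts (blue) and of the listed genes for snoRNA-binding, paraspeckle, speckle, decay, RNase and TOP proteins and other hosts (grey); black bars are list medians and the dashed line is the median of expressed protein-coding genes. Medians run from 7.16 TPM for the RNase genes to 877 TPM for ribosomal protein genes, with 46.1 TPM for the hosts.

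Gas5 and Snhg6 overlap protein-coding genes of much lower level, and the flanking genes of the other hosts ranged from far below to above the host. Gas5 shares 264 bases of its span with Zbtb37, which stood at 1.16 TPM, 451-fold below Gas5. Snhg6 shares 1582 bases with Mcmdc2, which stood at 0.116 TPM. Whether the library kept strand is not given in the sources used here, so reads in shared bases cannot be assigned with certainty. Epb41l4aos lies 337 bases from Epb41l4a, which stood at 8.94 TPM, and Snhg12 lies 738 bases from Trnau1ap at 29.2 TPM. Around Snhg3, Phactr4 stood at 9.63 TPM, nearly level with the host, and Rcc1 at 19.4 TPM. Snhg5 was the lower of a pair with Syncrip at 72.8 TPM and the higher with Zfp949 at 4.68 TPM. Snhg1 lies 117 bases from Slc3a2, an amino acid transporter gene at 279 TPM, and Snhg8 lies 949 bases from Prss12 at 4.43 TPM.

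The library carried the markers of the labelled cells. All 9 follicle stem cell markers lay above the protein-coding median, as did 27.9% of all nuclear protein-coding genes. Krt15 stood at 3364 TPM, Col17a1 at 398 TPM, Lhx2 at 171 TPM, Cd34 at 132 TPM and Itga6 at 99.4 TPM. Lgr5, Sox9, Tcf7l1 and Nfatc1 stood at 63.9, 52.1, 36.7 and 16.1 TPM. Of these markers, only Krt15 and Col17a1 exceeded the fibroblast collagen genes that follow. Genes of other cells were present too: Col3a1, Col1a1 and Col1a2 of fibroblasts at 287, 278 and 237 TPM, with Pdgfra at 1.44 TPM, 4 melanocyte genes between 7.21 and 12.6 TPM, and 3 endothelial genes at 2.01 TPM or less. The leukocyte genes Ptprc, Lyz2 and Cd74 stood at 0.264, 10.02 and 13.2 TPM. The sebaceous genes Awat1 and Scd3 stood at 0.271 and 0.211 TPM, and the suprabasal and hair keratin genes Krt10, Krt1, Krt71 and Krt25 at 138, 33.0, 51.3 and 38.2 TPM. As the 8 long noncoding RNAs are made by most cell types, the part of such cells in their levels was not tested. In a bulk sample, fewer cells with an RNA and less of it per cell cannot be told apart.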

How the data were processed

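RNA-seq of 1 library was used. The authors deposited TPM, per the file headers, a unit that keeps no read depth and moves with every other gene of the library. The aligner Bowtie2 2.2.9, the quantifier RSEM 1.2.30 and build mm10 are named in the submitters' processing notes. For annotation, filters and strand setting, nothing is given in the sources used here. Per the labels' protocols, an Illumina mRNA kit and paired-end reads on a HiSeq instrument were used. Of 12 columns with sample values, that numbered 1 was taken as the anagen sample, whose title alone carries that number, and the other 11 were not used. The planned groups hold 1 sample each, so no test, error or interval was possible.

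Of 42661 rows, each of 42392 gene IDs was used once. A name table matched 41523 IDs. RefSeq of GRCm38.p6 gave types for 32916 IDs by symbol or synonym, as well as positions and promoter sequences. The 8 RNAs were taken by the file's own symbol. For other genes on several IDs, the higher value was taken. The members and lists were chosen with earlier results of these data known. Named genes are the listed RNAs, the 10 highest other long noncoding RNAs, flanking or overlapping genes, all members of lists with at most 12 genes found, and the 3 highest and 2 lowest of longer lists, of which not all are reported here. Rank and motif functions were tested on simulated data. Calculations used Python 3.11.15, pandas 2.3.3 and numpy 2.4.6, and plots matplotlib 3.10.9.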

Additional observations from a re-analysis of the deposited data

How the results depend on the processing

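Summing all IDs of a symbol could not move the median of the 8 RNAs, 56.1 TPM, because only Gas5 had a second ID, listed at 0. Rescaled without the mitochondrial genome, that median was 69.0 TPM and the 8 held 0.115% of TPM. Over nuclear protein-coding and long noncoding genes alone, the values were 116 TPM and 0.194%, since fewer features share the total. The rank of Malat1 was 13 with types from either source of symbols, the second of which was chosen after seeing the data, and 119 when untyped features were counted as long noncoding. Of the 8 RNAs, 7 lay above the protein-coding median, 8 with no filter on low values and 7 with a filter at 5 TPM. The geometric mean of the hosts, with a pseudocount of 1 TPM, was 51.7 TPM against a median of 46.1 TPM. No paired analysis was possible because only 1 library was analysed. Without counts or replicates, neither depth nor spread limits could be set on any value.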

Other observations

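Other well-known long noncoding RNAs ranged from 0 to the level of Neat1. Of 30 listed, 27 were found, with a median of 4.84 TPM. Of the 27, 17 reached 1 TPM, against 13.1% of RefSeq-typed long noncoding RNAs. Above the median of expressed protein-coding genes lay 10 of the 27, against 1.86% of that class. The list was picked as well known, so these counts describe the choice and are not a test. The highest were Xist at 142 TPM, Hotairm1 at 49.7 TPM and Tug1 at 37.9 TPM, of which Xist was close to Neat1 and Hotairm1 to Malat1. The lowest were Hotair, the HoxC antisense RNA, at 0.00927 TPM and Hottip, of the HoxA cluster, which was listed at 0. Hotairm1 and Hottip thus lay at opposite ends of this list although both flank the HoxA genes.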
